A study of Caenorhabditis elegans with 4 samples.

Results

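The 8 genes of the cytosolic CCT chaperonin ring, cct-1 to cct-8, were examined for occupancy by EGL-27 in Caenorhabditis elegans larvae. They were taken by name as the complete set of ring subunits, all 8 were found in the annotation, and they stand among 19973 nuclear protein-coding genes. The set was chosen with earlier results of these data known. Its counts therefore stand beside the shares of all genes as a description, without a test. EGL-27 was mapped by chromatin immunoprecipitation and sequencing (ChIP-seq) in 4 biological replicates, the only group of the study. All replicates were whole worms of strain OP177, genotype unc-119(ed3) III; wgIs177, at larval stage L3, with males and females pooled. In this stable transgenic line EGL-27 carries GFP-FLAG at its C terminus. No source used here names the promoter that drives the transgene. Whole worms mix all cell types, so a peak may come from few or many kinds of cell. No strain without the tag and no ChIP of another protein was analysed here, so peaks particular to EGL-27 cannot be told apart from places that give peaks in many ChIP experiments.

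CCT, also called TRiC, is the group II chaperonin of the eukaryotic cytosol. It is built of paired rings in which each position is held by a different, related subunit, and every subunit is needed for a working ring. Newly made actin and tubulin are its best known clients, and prefoldin delivers unfolded clients to it. The worm genes encode the alpha (cct-1), beta (cct-2), gamma (cct-3), delta (cct-4), epsilon (cct-5), zeta (cct-6), eta (cct-7) and theta (cct-8) subunits. EGL-27 is a worm relative of the MTA proteins of the NuRD chromatin remodelling complex.

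The data are the authors' peak lists on the build ce11. The 4 replicate lists held between 6602 peaks (replicate 2) and 30000 peaks (replicate 1), and the pooled list held 28056. These lists include background, and read depth is unknown. The list thresholded by the irreproducible discovery rate (IDR) held 814 peaks, which were exactly the 814 highest scoring peaks of the pooled list. The top peaks of a replicate are here its 814 highest scoring peaks. Rank 1 is the highest score within a list. A gene was given a peak when the summit lay between 1000 bp upstream and 200 bp downstream of its annotated 5′ end, the promoter window.

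EGL-27 had an IDR summit in the promoter window of 4 CCT genes, cct-8, cct-7, cct-1 and cct-6, and in no window of the other 4. All 4 summits lay upstream of the gene, between head-to-head genes, and each was nearer to the 5′ end of the neighbour. Across all nuclear protein-coding genes 2.56% had an IDR summit in the window (512 of 19973). The pooled list, with its background, had a summit at 7 of the 8, against 37.5% of all genes. In the pooled list and this window the ranks fell into separate ranges: 129 to 754 at the 4 genes with an IDR summit, and 15355 to 20684 at cct-4, cct-2 and cct-5. The split depended on both choices. A pooled summit of rank 1909 lay 1199 bp upstream of cct-2, outside the window. In replicate 4, cct-8 (rank 4820) lay with cct-4 (5144) and cct-2 (5738), apart from cct-7 (305), cct-1 (555) and cct-6 (948). The gene cct-3 had no summit in the window in any list, as was the case for 39.2% of all genes. Over the 7 genes the median pooled rank was 754, against 9773 over the 7489 genes with a pooled summit and 5775 over the 1665 of these with a head-to-head neighbour within 1000 bp.

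**Figure D1:**
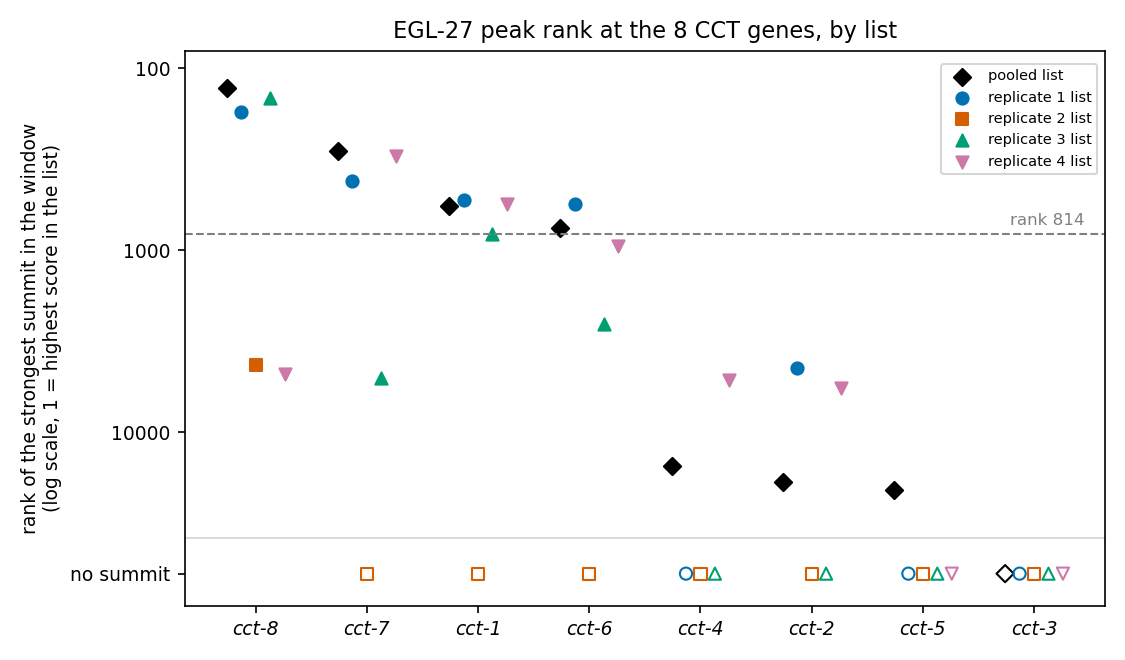
Rank of the strongest summit in the promoter window of each CCT gene (log scale, rank 1 at the top) in the pooled list and the 4 replicate lists; open symbols mark lists without a summit and the dashed line marks rank 814. The pooled ranks of cct-8, cct-7, cct-1 and cct-6 lie above the line, at 129 to 754, and 3 of these 4 genes have no summit in replicate 2.

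The sequences under these 4 summits are given first, as the places on which the results turn. Each is 151 bases long, centred on the pooled summit, and read 5′ to 3′ on the strand of the CCT gene (RefSeq genome sequence, build WBcel235, the same assembly as ce11). They are chrIV:1094250-1094400 (minus strand), chrV:1871877-1872027 (plus), chrII:8185155-8185305 (plus) and chrIII:5855856-5856006 (minus). Capitals mark a match to the letters GGTCTCNNCAC on either strand, described further on.
cct-8: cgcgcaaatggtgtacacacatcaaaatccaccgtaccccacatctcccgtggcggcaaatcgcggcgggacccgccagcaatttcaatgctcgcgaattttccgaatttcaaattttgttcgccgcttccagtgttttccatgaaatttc
cct-7: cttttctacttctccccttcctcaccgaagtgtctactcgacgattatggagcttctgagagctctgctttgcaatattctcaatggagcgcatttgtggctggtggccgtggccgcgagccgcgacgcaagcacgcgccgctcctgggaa
cct-1: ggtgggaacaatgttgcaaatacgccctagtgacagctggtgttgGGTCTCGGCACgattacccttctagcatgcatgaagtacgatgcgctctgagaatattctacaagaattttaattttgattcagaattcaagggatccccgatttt
cct-6: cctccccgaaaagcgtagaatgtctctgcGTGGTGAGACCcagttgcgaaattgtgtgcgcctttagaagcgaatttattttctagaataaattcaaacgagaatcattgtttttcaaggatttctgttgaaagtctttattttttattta
None of the 4 stretches touches an annotated exon of a protein-coding gene. That of cct-7 runs into the non-coding RNA gene T10B5.13. The bases within 50 bp of the summit were 54.5% G or C at cct-8 and 55.4% at cct-7, against 42.6% at cct-1 and 37.6% at cct-6. The median was 47.5% over nuclear IDR summits and 38.6% over nuclear pooled summits.

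The theta subunit gene cct-8 (WBGene00021934; IV, 1087108 to 1093920, minus strand) had the highest ranking peak of the ring, at IV, 1094140 to 1094509. It ranked 129 in the pooled list. In replicates 1 to 4 the window summit ranked 173, 4252, 145 and 4820. Replicates 1 and 3 thus placed it among their top peaks, and replicates 2 and 4 did not. It was the only CCT gene with a summit in all 4 replicate lists, as were 2.6% of all genes. Its summits lay 405, 407, 417 and 442 bp upstream of the 5′ end in replicates 1 to 4, a mean of 418 bp ± 17 (SD, n = 4). All 4 thus lay within 37 bp of the pooled summit, while their ranks ran from 145 to 4820. The pooled summit was 405 bp from cct-8 and 216 bp from Y55F3AR.2, a thioredoxin domain gene on the other strand. It was also 116 bp from the unclassified non-coding RNA gene Y55F3AR.4, so the peak cannot be given to 1 gene.

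The eta subunit gene cct-7 (WBGene00020391; V, 1872246 to 1875505, plus strand) had a peak at V, 1871767 to 1872136, which ranked 283 in the pooled list. The window summit ranked 418 in replicate 1 and 305 in replicate 4, both top peaks, and 5064 in replicate 3. Replicate 2 had no summit there. The 3 summits lay 294, 349 and 325 bp upstream in replicates 1, 3 and 4, a mean of 323 bp ± 27.6 (SD, n = 3), within 55 bp of the pooled summit. The pooled summit was 294 bp from the 5′ end of cct-7 and 145 bp from that of T10B5.4, annotated as an N-acetyltransferase. It was 28 bp from the unclassified non-coding RNA gene T10B5.13, which lies between the pair.

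The alpha subunit gene cct-1 (WBGene00000377; II, 8185443 to 8187601, plus strand) shares its upstream region with mig-5, which encodes a Dishevelled protein of Wnt signalling. The peak at II, 8185045 to 8185414 ranked 574 in the pooled list. Its summit was 213 bp from the 5′ end of cct-1 and 207 bp from that of mig-5, that is 3 bp from the midpoint of the 2 ends. The window summit ranked 531 in replicate 1, 815 in replicate 3 and 555 in replicate 4, and replicate 2 had none. The rank of 815 in replicate 3 was the first outside the top peaks. It was also a different place: that summit lay 294 bp from the pooled one, 87 bp inside mig-5. The summits of replicates 1 and 4 lay 4 and 46 bp from the pooled summit. In replicate 1 the summit was nearer to cct-1 (209 bp) than to mig-5 (211 bp), and in replicate 4 nearer to mig-5 (161 bp) than to cct-1 (259 bp).

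The zeta subunit gene cct-6 (WBGene00000381; III, 5853530 to 5855687, minus strand) had the weakest of the 4 IDR peaks, at III, 5855746 to 5856115 with rank 754. This rank lies beyond 712, the number of peaks in the IDR list that the authors deposited on the older build ce10. Whether that list holds this peak was not checked, as no coordinates were converted. The window summit ranked 555 in replicate 1, 2542 in replicate 3 and 948 in replicate 4, and replicate 2 had none. Only replicate 1 had it among the top peaks. The summits of replicates 1 and 4 lay 4 and 7 bp from the pooled summit and that of replicate 3 lay 188 bp away, in an exon of alh-9. The pooled summit was 244 bp from cct-6 and 87 bp from alh-9, which encodes an aldehyde dehydrogenase. A further pooled summit of rank 2134, with rank 1056 in replicate 1, lay 895 bp upstream of cct-6 and 564 bp inside alh-9.

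The other 4 genes had summits of low rank or none. The delta subunit gene cct-4 (WBGene00000379; II, 8283667 to 8285711, plus strand) had a pooled summit of rank 15355, 247 bp upstream and 212 bp from the 5′ end of nst-1, a nucleostemin family GTPase gene. Its authors' −log10 q-value was 0.232, against 2.22 at each of the 4 IDR summits. Replicate 4 had a summit of rank 5144 at nearly the same place, 249 bp upstream, and the other replicates had none. This gene has a head-to-head neighbour at a distance, 459 bp, close to that at cct-1 and cct-7.

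At the beta subunit gene cct-2 (WBGene00000378; II, 8927741 to 8929815, plus strand) the pooled summit ranked 18781 and lay 995 bp upstream, almost at the edge of the window and 195 bp from the 5′ end of B0457.2. Replicate 4 had a summit of rank 5738 nearby, at 964 bp. Replicate 1 had summits elsewhere, at 316 bp (rank 4429) and 82 bp (rank 13292). A stronger pooled summit, of rank 1909, lay 1199 bp upstream, just outside the window, in exons of B0457.2 and of the non-coding RNA gene VT21B10L.1.

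The epsilon subunit gene cct-5 (WBGene00000380; III, 4499188 to 4508114, minus strand) had a pooled summit of rank 20684, 723 bp upstream and 18 bp from the 5′ end of F25F2.1, annotated as a protein kinase, and no summit in any replicate. Its gene body differed from its promoter. Over 8927 bp the gene held 6 pooled summits of rank 1979 to 6130 more than 200 bp inside the 5′ end, or 0.672 per kb. Protein-coding genes as a whole had 0.241 per kb. The gamma subunit gene cct-3 (WBGene00018782; II, 2233540 to 2243539, plus strand), 10000 bp long, held 2 such summits, of rank 8650 and 12816. At cct-6 there was 1 of rank 4577 and at cct-8 1 of rank 26130, and the bodies of cct-1, cct-2, cct-4 and cct-7 held none. The density was 0.463 per kb at cct-6, 0.2 at cct-3 and 0.147 at cct-8. Such a summit was found in 4 of the 8 CCT genes and in 39.2% of all protein-coding genes, so the share of CCT genes was near the background. None of these gene body summits was an IDR summit.

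The replicates differed in how many CCT genes they placed among the top peaks. Replicate 1 had a top summit at 4 of the 8 genes, replicate 2 at 0, replicate 3 at 1 (cct-8) and replicate 4 at 2 (cct-1 and cct-7). Across all protein-coding genes the shares were 2.32%, 1.75%, 2.01% and 2.13%. The mean over replicates was 1.75 ± 1.71 CCT genes (SD, n = 4), so the spread was as large as the mean. The 4 genes in replicate 1 were those of the IDR list. At least 2 replicates had a top summit at 3 CCT genes (cct-1, cct-7 and cct-8), against 1.86% of all genes. At least 3 had one at 0 of the 8, against 0.676% of all genes. Summits of any rank were found at 5 CCT genes in replicate 1, 1 in replicate 2 (cct-8), 4 in replicate 3 and 6 in replicate 4, against 37.9%, 10.3%, 26.7% and 19.6% of all genes. The lists thus differed at any rank too, and replicate 4 covered more CCT genes than the longer list of replicate 1. A summit of any rank was present in at least 3 replicates at 4 CCT genes, the same genes as in the IDR list, against 9.45% of all genes. These need not be the same place: at cct-1 only 2 of the 3 replicate summits lay within 200 bp of the pooled summit. At cct-6, cct-7 and cct-8 all did.

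**Figure D2:**
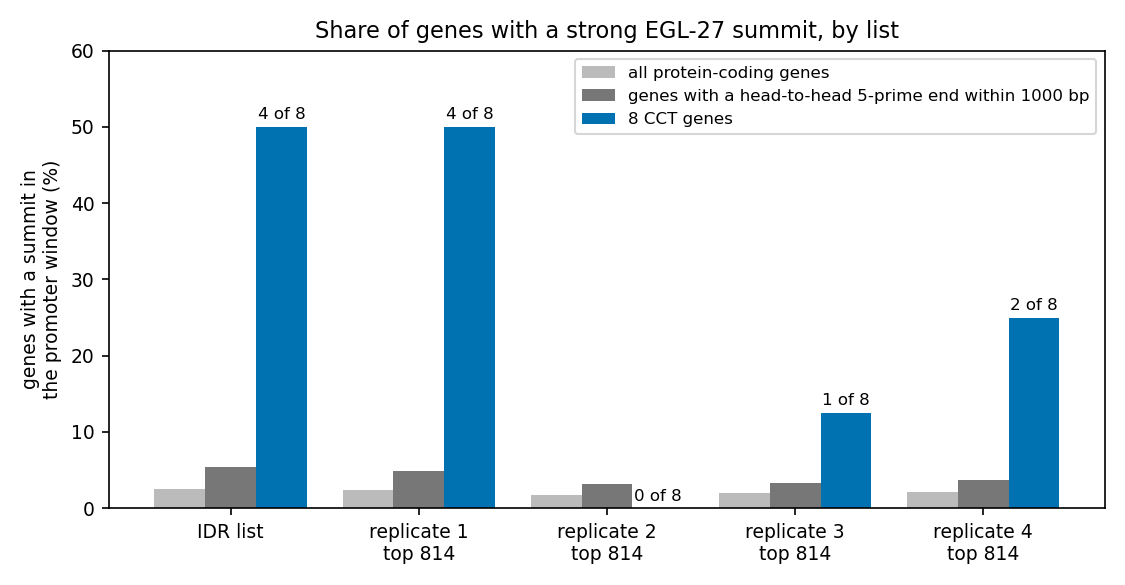
Percent of genes with a summit in the promoter window among the IDR peaks and among the 814 top peaks of each replicate, for all protein-coding genes, for genes with a head-to-head 5′ end within 1000 bp, and for the 8 CCT genes, with their number above the bar. The CCT bar ranges from 0 of 8 in replicate 2 to 4 of 8 in replicate 1.

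The arrangement of the CCT promoters was also described. The genes were chosen with earlier results of these data known, and head-to-head genes had IDR summits more often, as given below. The arrangement therefore cannot be taken as independent of the choice of genes. Every CCT gene had a protein-coding neighbour on the other strand with its 5′ end upstream, at 331 bp (cct-6), 420 bp (cct-1), 439 bp (cct-7), 459 bp (cct-4), 621 bp (cct-8), 741 bp (cct-5), 1070 bp (cct-3) and 1190 bp (cct-2). Within 1000 bp this held for 6 of the 8 genes and for 17.7% of all protein-coding genes, and within 1200 bp for 8 of 8 and 20.2%. The limit of 1200 bp lies just above the largest CCT distance, 1190 bp. The distances were looked at after the peaks had been seen. The 4 genes with an IDR summit were among the 5 with the shortest distances, and cct-4 was the other. The neighbours coded for unrelated proteins, among them a Dishevelled protein, an aldehyde dehydrogenase and a nucleostemin GTPase.

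Head-to-head genes had IDR summits in the window more often than genes at large. By the window rule a summit between 2 such genes can count for both. How much of the difference comes from this counting was not tested. Of the 3539 genes with such a neighbour within 1000 bp, 5.43% had an IDR summit in the window, as did 4 of the 6 CCT genes of this kind. A pooled summit was found at 47% of these genes and at 6 of the 6. In replicates 1 to 4 the shares of these 3539 genes with a top summit were 4.92%, 3.14%, 3.28% and 3.76%. Because each of the 4 IDR summits lay nearer to the neighbour, none of the CCT genes kept an IDR summit when each summit was given only to the nearest 5′ end, a rule under which 1.91% of all genes had one. Among the replicates, cct-1 in replicate 1 was then the 1 CCT gene with a top summit. Whether the peaks belong to the CCT gene, to its neighbour or to both cannot be told apart in these data. Of the 390 IDR summits in any promoter window, 30.8% lay in the windows of 2 or more genes.

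**Figure D3:**
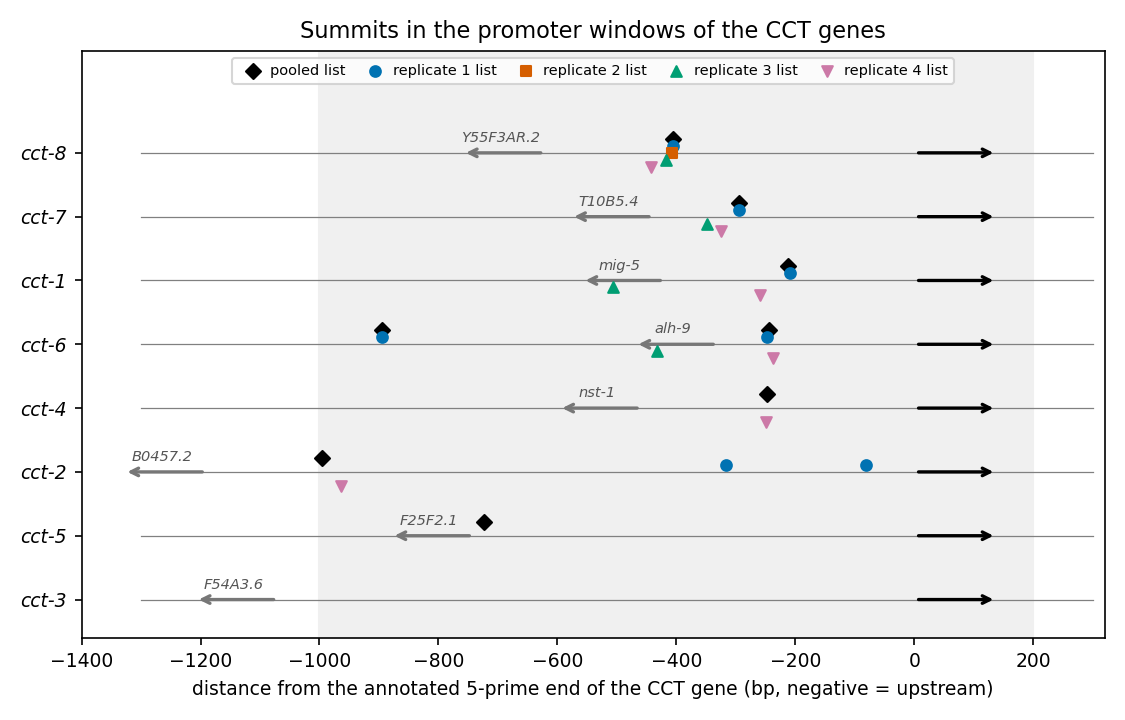
Position of each summit in the promoter windows of the CCT genes, as distance in bp from the annotated 5′ end of the CCT gene (black arrow at 0); grey arrows start at the 5′ end of the head-to-head neighbour, shading marks the window, and symbols mark the lists. At cct-8 the 5 summits lie between 405 and 442 bp upstream, and at each of the 7 genes with one the strongest pooled summit lies between the 2 head-to-head genes.

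The annotated 5′ ends need not be the starts of transcription. Many worm messages receive a spliced leader, and the letters TTTCAG, the usual splice acceptor, stood directly before the annotated 5′ end of 4 CCT genes (cct-1, cct-2, cct-5 and cct-6), against 12.3% of all protein-coding genes. Such an end can mark the trans-splice site and not the start of transcription. All distances given here are to the annotated end.

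Of 7 motifs searched within 50 bp of the strongest pooled summit on both strands, 4 were found at CCT genes, each at 1 or 2 of the 7 summits. Any of the 7 was found at 5 CCT summits, against 42.3% of nuclear IDR summits and 51% of nuclear pooled summits. The letters TTCNNGAA and GAANNTTC, arrangements of the unit bound by heat shock factor, were found at cct-6 for the former, and at cct-1 and cct-8 for the latter. They occurred at 2.37% and 3.37% of nuclear IDR summits, and at 5.97% and 6.24% of nuclear pooled summits. The letters GATAA, the core bound by zinc finger factors of the family named after it, were found at cct-5 (17.7% of IDR and 21.8% of pooled summits). Those of the core promoter element TATAAA were found at cct-4 (4.61% and 9.26%). CACGTG (6.11% and 2.51%), GAGAGAG (13.8% and 3.9%) and TTTCAG (4.74% and 16%) were at none of the 7 summits. Within 100 bp the counts differed: TTCNNGAA was found at 6 of the 7 summits (all but that of cct-8), against 6.48% of IDR and 12.1% of pooled summits, and GATAA at 3 (cct-1, cct-2 and cct-5), against 32.4% and 38.3%. Any of the 7 motifs was then found at 7 of 7, against 68.7% and 75.9%. In the whole promoter window, a longer stretch in which short motifs occur often, TTCNNGAA was found at all 8 CCT genes and at 57.9% of all genes.

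A longer run of letters was noticed when the sequences were read, and was then counted. It was the only pattern of 6 fixed, 2 free and 3 fixed bases found within 50 bp of 3 of the 7 pooled summits, at cct-1, cct-4 and cct-6, and 9 other such patterns were found at 2. This run, GGTCTCNNCAC, occurred, on either strand, in the promoter windows of 5 of the 8 CCT genes, against 4.22% of all protein-coding genes (843 of 19973) and 5.17% of those with a head-to-head neighbour within 1000 bp. Since these letters were chosen because CCT promoters share them, the count is a description. The 5 matches are shown with 10 bases on each side, each on the strand that reads GGTCTCNNCAC, with the match in capitals. Their places are chrII:8185190-8185220 (plus), chrII:8927237-8927267 (minus), chrII:2232664-2232694 (plus), chrII:8283408-8283438 (plus) and chrIII:5855957-5855987 (plus).
cct-1: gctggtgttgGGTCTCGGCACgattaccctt
cct-2: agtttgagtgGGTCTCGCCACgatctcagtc
cct-3: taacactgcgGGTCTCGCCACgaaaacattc
cct-4: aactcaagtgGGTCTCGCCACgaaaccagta
cct-6: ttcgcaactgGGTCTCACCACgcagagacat
All 5 have a G before the match, and the lines of cct-2, cct-3 and cct-4 share the match itself letter for letter. Across the 8 windows, matches were found at genes with and without an IDR summit, and a link to the peaks was not tested. They were present at cct-1 and cct-6, with IDR summits, at cct-4 and cct-2, with pooled summits of low rank, and at cct-3, with none, and absent from the windows of cct-8 and cct-7, which ranked highest. The centre of the match lay 25 bp from the pooled summit at cct-1, 41 bp at cct-6 and 3 bp at cct-4, but 506 bp at cct-2. The run was picked from the bases within 50 bp of the summits, so the 3 short distances follow from that choice. Over all lists the letters lay within 50 bp of 1.37% of nuclear IDR summits (11 of 802) and 0.403% of nuclear pooled summits (113 of 28043).

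Genes that work with the ring were read in the same way, from a list of 35 named for their roles. IDR summits were found at 4 of the 35, pfd-1, tba-2, tbb-1 and hsp-60, against 2.56% of all protein-coding genes. By group these were 1 of 6 prefoldin genes, 0 of 5 actin genes, 2 of 16 tubulin genes, 0 of 5 tubulin cofactor genes and 1 of 3 others (hsp-60, hsf-1 and pdl-1). In groups this small, a count of 0 or 1 says little. Prefoldin hands clients to CCT, and all 6 of its genes had a pooled summit in the window, as did 4 of 5 actin, 10 of 16 tubulin, 1 of 5 tubulin cofactor and 2 of the 3 other genes, against 37.5% of all genes. The strongest was at pfd-1 (rank 549), 317 bp upstream, in a window shared with F01G4.6, whose 5′ end was nearer. It ranked 10200, 4112, 544 and 73 in replicates 1 to 4, and so was a top peak in replicates 3 and 4. The next, pfd-5 (rank 939), was a top peak in replicates 1 and 2 (ranks 183 and 538).

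Among the clients, the alpha tubulin gene tba-2 had a pooled summit of rank 148 whose nearest 5′ end was its own, and the window summit ranked 706, 731, 89 and 209 in replicates 1 to 4. It was thus a top peak in 4 of 4 replicates, which was the case for 0.195% of all genes and for none of the CCT genes. The beta tubulin gene tbb-1 (rank 504) shared its peak with rib-2, whose 5′ end was nearer, and had a top peak only in replicate 1 (rank 472). No actin gene had an IDR summit; the strongest pooled summit was that of act-4 (rank 1776), with no top peak in any replicate. The gene act-2, named after its values were seen, was the 1 actin gene with a top peak, in replicate 4 (rank 242). The mitochondrial chaperonin gene hsp-60 (rank 362), which encodes the group I counterpart of CCT, shared its peak with Y22D7AL.10 and was a top peak only in replicate 3 (rank 171).

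**Figure D4:**
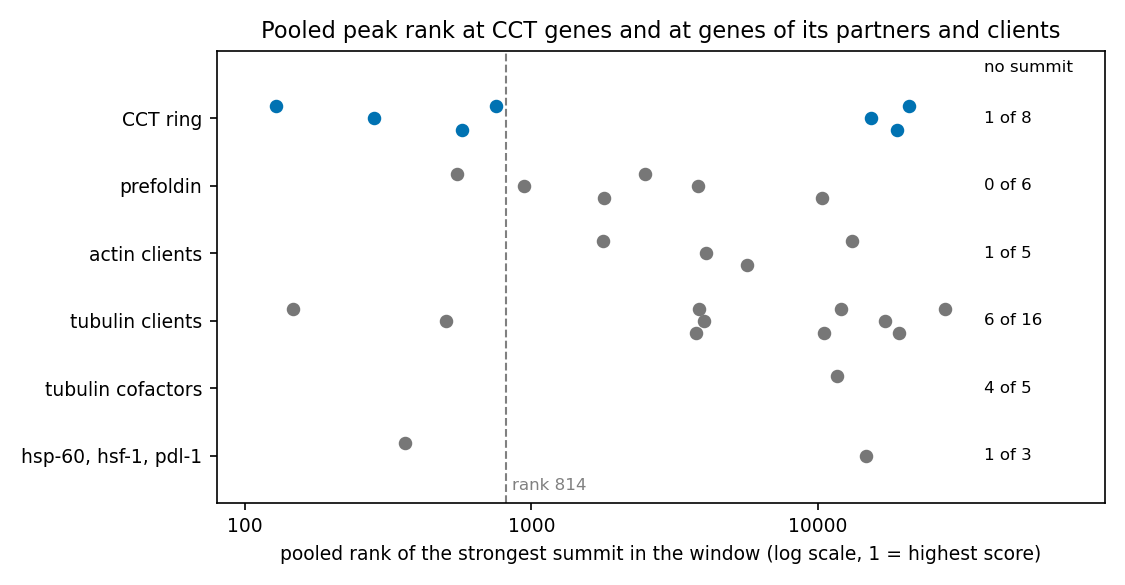
Pooled rank of the strongest summit in the promoter window (log scale, rank 1 is the highest score) for the CCT genes and 35 related genes; each point is a gene, the dashed line marks rank 814, and the numbers at the right count genes without a pooled summit. With this list and window the 7 CCT points lie in separate ranges on either side of the line, at 129 to 754 and at 15355 to 20684. A pooled summit of rank 1909, just outside the window of cct-2, is not shown.

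Genes with a pattern of ranks like that of cct-8, the 1 CCT gene with a summit in every replicate list, were sought among the 520 genes of this kind. Likeness was measured as the Euclidean distance of log10 rank over the 4 replicates. Y55F3AR.2 had a distance of 0, since it shares the same summits. It was followed by gmps-1 (0.283), a GMP synthase gene with ranks 125, 3044, 228 and 4661 in replicates 1 to 4, and by vha-8 (0.384), a vacuolar ATPase subunit gene with ranks 352, 4097, 108 and 3123. Both had low numbers in replicates 1 and 3 and high ones in replicates 2 and 4, as at cct-8. This likeness follows from how the genes were chosen and is only a description.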

How the data were processed

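EGL-27 ChIP-seq of 4 biological replicates, which form 1 group, was analysed from the authors' peak lists on ce11: 4 replicate lists, the pooled list and the IDR list. Per the deposited README texts, peaks and background were called on each replicate, and on all 4 together, against 1 shared control, and the IDR list was derived from these lists. Which aligner, peak caller and thresholds they used is not given in the sources. The score of each peak, as deposited by the authors, has no stated scale and served only to rank the peaks of each list. The −log10 q-value was also deposited by the authors, and took the single value 2.22 in the IDR list. Read depth is unknown, so no interval that needs it was computed. Of the ce10 lists only the number of IDR peaks, 712, was used, and no coordinates were converted.

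Summits were taken as start plus offset and set against the 5′ ends of nuclear protein-coding genes (Ensembl release 115, WBcel235). No peak ran beyond a chromosome end. Counts of CCT genes stand beside the same share over all genes, without a test, because the members and gene lists were chosen with earlier results of these data known. Replicates were compared at 814 top peaks. Named genes were the members, genes sharing their strongest summits, non-coding genes within 200 bp, related genes with IDR summits or up to 4 others by rank, and the 3 genes most like cct-8. Recovery of planted summits and motifs was tested on simulated data. Python 3.11.15, numpy 2.4.6 and pandas 2.3.3 were used.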

Additional observations from a re-analysis of the deposited data

How the results depend on the processing

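The count of 4 CCT genes with an IDR summit held with windows of 500 bp upstream and of 2000 bp upstream to 500 bp downstream, with every annotated transcript start, and with any overlap of peak and window. It was 0 with each summit given to the nearest 5′ end only and 2 with the stronger 407 IDR peaks (cct-7 and cct-8). With the 712 highest scoring ce11 peaks, as many as the ce10 IDR list holds, it was 3. This alternative was chosen after seeing the data, and the peaks of the ce10 list themselves were not compared. From the top peaks of 1 replicate in place of the IDR list, also added, it was 4, 0, 1 and 2 in replicates 1 to 4. The 7 genes with a pooled summit became 5 with the window of 500 bp upstream, without cct-2 and cct-5, against 27.8% of all genes. They became 0 with the nearest 5′ end only. The 4 related genes with an IDR summit became 1 under the nearest 5′ end rule. The falls under this rule follow from the neighbours' nearer 5′ ends. The count of 0 genes with a top summit in at least 3 replicates became 1 with 1628 top peaks per replicate, 4 with the full lists and, added later, 3 for at least 2 replicates. Without 1 replicate, it ranged from 0 to 3 depending on the replicate left out and on whether 3 or 2 of the others were asked for: with 2 of 3 it was 0 without replicate 1, 3 without replicate 2, 2 without replicate 3 and 1 without replicate 4. At the 4 genes with an IDR summit the median upstream distance was 269 bp in the pooled list, 271 bp in replicate 1 and 292 bp in replicate 4. It was 407 bp in replicate 2, from cct-8 alone, whose pooled distance was 405 bp. In replicate 3 it was 424.5 bp. There the summits of cct-1 and cct-6 lay 507 and 432 bp upstream, against 213 and 244 bp in the pooled list. Why these 2 summits lay elsewhere in replicate 3 was not tested. Of the 7 genes with a pooled summit, 5 had any of the 7 listed motifs within 50 bp, 7 had one within 100 bp, and 3 had GGTCTCNNCAC, which was added later. The unknown depth of the libraries limits how far a missing summit can be read as absence.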
